A study of Schmidtea mediterranea with 152 samples.

Results

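The study describes its non-pole cells as muscle picked by a collagen qRT-PCR screen, but the labels give no screen result for a cell. Collagen-low non-pole cells carry the label non-pole but have almost no reads of 2 muscle collagen transcripts, dd_840 (COL1A2) and dd_701 (COL24A1). They were chosen by a measured value: non-pole cells needed 50000 reads or more on the transcripts analysed, and a cell was collagen-low when dd_840 and dd_701 together stayed under 1000 CPM (counts per 1000000 of its reads on those transcripts), and collagen-high otherwise. Of 69 regenerating and 53 uninjured cells, 21 were collagen-low (8 regenerating and 13 uninjured), against 61 regenerating and 40 uninjured collagen-high cells. The levels of dd_840 and dd_701 are therefore a description of the choice, and no test was made on any transcript, because each condition is 1 sample of cells and the labels name no animal.

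All cells came from the asexual CIW4 strain of the planarian Schmidtea mediterranea, whose animals were starved before surgery. Regenerating cells came from the midline of the posterior blastema, the tissue that regrows after injury, sampled 72 hours after the tail had been cut off, and uninjured cells from the midline of the intact tail tip. Non-dividing single cells with a 2N Hoechst signal were sorted 1 per well and made into SmartSeq2 libraries of polyA RNA. In the study, wells positive for collagen and negative for wnt1 by qRT-PCR served as non-pole muscle. The series holds 75 regenerating and 65 uninjured non-pole libraries beside 12 pole libraries, and 12 non-pole libraries had too few reads. The labels give more libraries of both classes than the study describes. Which of them it used was not analysed here, so the class of a library rests on its label alone. The labels say non-pole and not muscle, so whether each low cell was collagen-positive in the screen is not known here. A further 6 pairs of uninjured libraries were near-identical, differing by far less than any other pair but by more than sampling noise alone, and each pair was summed to 1 cell. In the text, "blastema cell 12" is a regenerating cell and "tail cell 61" an uninjured one, with the number as its replicate name. Tail cells 62 and 31 are such summed pairs.

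Planarian muscle is known as the main source of fibrillar collagens and other matrix proteins, and also expresses the Wnt, BMP and FGFRL family signals that mark position along the body axes. agat-1 is known as a marker of a different lineage, the post-mitotic progenitors that replace the epidermis. PC2, a proprotein convertase, is known as a marker of planarian neurons and other secretory cells.

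Because the study used the screen to pick muscle cells, its primers are shown here. By the study's account, the collagen pair made a cell eligible and the wnt1 pair parted pole from non-pole cells.
collagen forward: ggtgtacttggagacgttggttta
collagen reverse: ggtctaccttctcttcctggaac
wnt1 forward: gtgacattatgctcaaaggatttcc
wnt1 reverse: acggacagtgtgataacttaaacg
The primers are 23 to 25 bases long, printed in lower case throughout. Which collagen transcript the collagen pair amplifies was not analysed here, since no transcript sequences were used.

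Collagen-low cells made up 11.6% of blastema cells (8 of 69, exact Clopper-Pearson 95% interval 5.14 to 21.6%) and 24.5% of tail cells (13 of 53, 13.8 to 38.3%). The intervals overlap and cover counting error only. Reads on the transcripts used ranged over 72784 to 613313 in blastema low cells, against 51801 to 1296478 in blastema high cells, and over 69731 to 1497055 in tail low cells, against 62749 to 3527793 in tail high cells. After each cell was thinned to 50000 reads, the median number of transcripts read was 3356.5 in blastema low and 3223 in blastema high cells, and 3288 in tail low and 2672 in tail high cells. The share of a library on the mitochondrial row was 0.394 to 52.7% in low cells and 0.399 to 60.1% in high cells. The ranges of low and high cells overlapped for all of these measures.

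The sum of dd_840 and dd_701 was 0 CPM at the lowest, 8.07 CPM at the median and 341 CPM at the highest in the blastema low cells, against 1045, 9748 and 26580 CPM in the blastema high cells. In the tail low cells it was 0 CPM at the lowest and 876 CPM at the highest, against 2594, 15501 and 49888 CPM (lowest, median and highest) in the tail high cells. Few cells lay near the limit. Just inside it were tail cell 63 at 876 CPM, nearly all of it dd_840, and blastema cell 75 at 341 CPM, and just outside were blastema cells 51, 27 and 5 at 1045, 1448 and 1510 CPM. Most of the low cells were far below the limit.

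The other muscle collagens, which the rule did not use, were low together with dd_840 and dd_701 in most but not all of the cells. Levels from summed counts were compared as log2 folds of low over high cells with 1 CPM added. Summed counts weight each cell by its reads, and tail cell 49 held 1497055 of the 5585779 reads of tail low cells. A transcript counts as higher or lower when its fold was at least 1 on the log2 scale in that direction in both conditions. Of 18707 transcripts with at least 20 reads, 9.16% were higher and 13.7% lower in this sense. Taken singly, 17.5% were higher and 34.8% lower in the blastema, and 29.5% higher and 32.7% lower in the tail. All 11 other collagens were lower, with a median log2 fold of −4.98 in the blastema and −5.94 in the tail, beside −0.28 and −0.16 over all transcripts. Their summed level in single cells was 59.4, 422.0 and 18569 CPM (lowest, median and highest) in blastema low cells, against 8347, 50461 and 111499 CPM in blastema high cells. All 13 tail low cells lay below every tail high cell, which spanned 21705 to 122575 CPM, while 6 of the 8 blastema low cells lay below every blastema high cell. The exceptions were blastema cells 33 and 75, at 12443 and 18569 CPM.

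dd_402 (COL11A1) was at 140 CPM in blastema low cells (exact Poisson 95% interval 123.8 to 157.4), against 8227 CPM in blastema high cells (8186 to 8269), which is 58.8-fold lower. In the tail it was at 214 CPM in low cells, against 11541 CPM in high cells. It was read in 8 of 8 blastema and 11 of 13 tail low cells. Its log2 fold ranged over −6.67 (without blastema cell 75) to −5.42 in the blastema and −6.96 (without tail cell 29) to −5.50 in the tail with each low cell left out. The basement membrane collagen dd_2337 (COL4A6) had the smallest difference of the 11 in the blastema, at 804 CPM in low cells against 3912 CPM in high cells, and almost all of its reads there came from blastema cell 75, with 6075 CPM. In the tail, dd_2337 was at 20.4 CPM in low cells against 4088 CPM in high cells. Intervals and ratios here cover counting error only, since reads without molecular identifiers are not independent molecules.

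**Figure D1:**
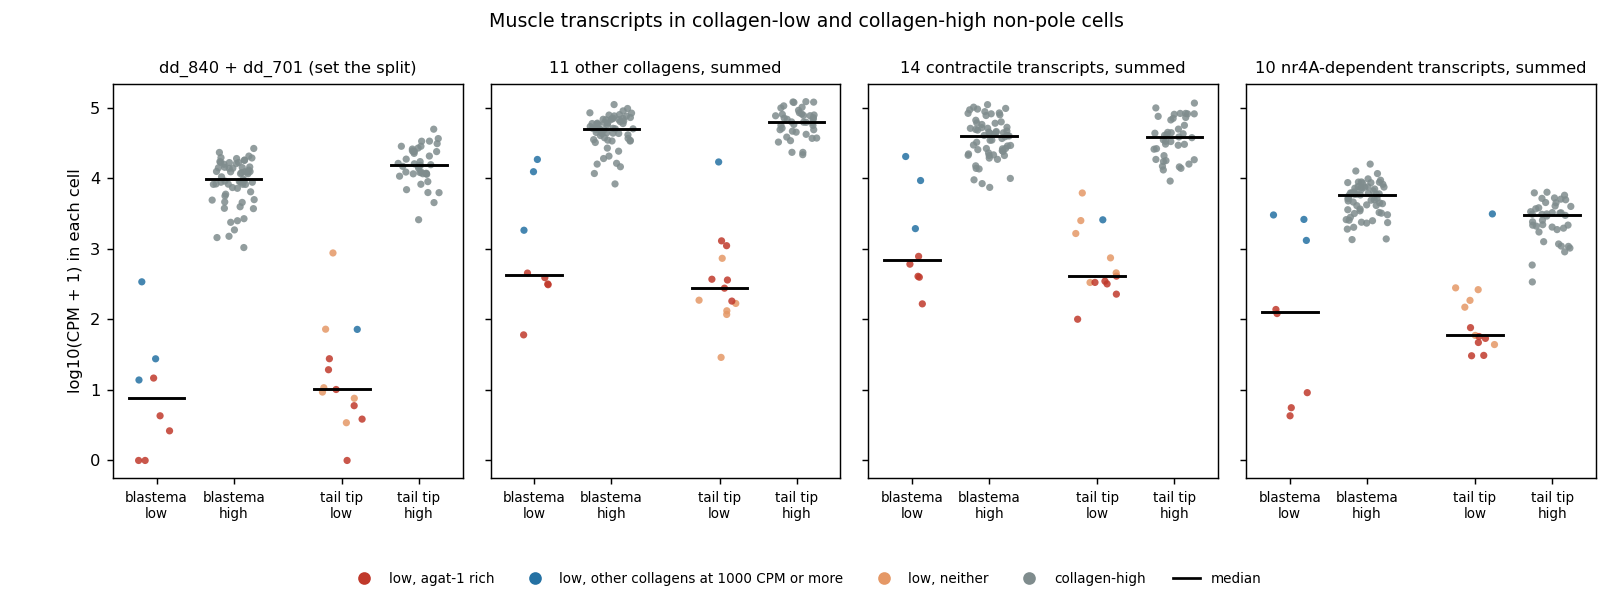
Each point is 1 cell, with log10(CPM + 1) on the vertical axis, for dd_840 plus dd_701 (which set the split) and 3 summed lists. Columns are blastema low, blastema high, tail low and tail high cells, bars are medians, and colours mark sets of low cells described in the text. The high cells of both conditions lie at 7457 CPM or more of the contractile list, and most low cells lie far below them.

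The contractile apparatus was low in the same cells. Of 14 contractile transcripts, 12 were lower in both conditions, beside 13.7% of all transcripts. The list medians were −3.70 in the blastema and −6.00 in the tail. dd_432 (MhcA), a myosin heavy chain with the most reads of the list, ranged over 3.76, 273 and 3916 CPM (lowest, median and highest) in blastema low cells, against 2376, 20999 and 60338 CPM in blastema high cells. The groups overlapped only through blastema cells 33 and 75, at 3916 and 2592 CPM. Over summed counts dd_432 was 38.9-fold lower in the blastema and 88.8-fold lower in the tail. With each low cell left out in turn, its log2 fold ranged over −6.29 to −4.75 in the blastema and −6.87 to −6.07 in the tail. dd_333 (CNN2), a calponin that binds actin, stood at 19.4 CPM in blastema low cells against 2487 CPM in high cells, and at 2.86 CPM in tail low cells against 2675 CPM in high cells. The calcium pump dd_1772 (ATP2A2) was at 311 CPM in blastema low cells against 2679 CPM in high cells, and nearly all of its reads in low cells came from blastema cells 33 and 75, at 4661 and 929 CPM. In the tail, dd_1772 was at 1.61 CPM in low cells and 2771 CPM in high cells.

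The summed contractile level lay below every high cell in 6 of 8 blastema and 13 of 13 tail low cells. All the same, MhcA (dd_432) was read in each of the 21 low cells, and at 3708 CPM in tail cell 63 and 1077 CPM in tail cell 29 it lay inside the range of tail high cells (lowest 906 CPM).

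The 2 contractile transcripts that were higher in low cells were dd_1165 (CAPZB), which caps actin filament ends in many cell types, and dd_3381 (TTN), named after the giant spring protein of the sarcomere. dd_1165 was at 192 CPM in blastema low cells against 78.2 CPM in high cells, and at 118.3 CPM in tail low cells against 38.6 CPM in high cells. dd_3381 was at 66.3 against 6.63 CPM in the blastema and at 72.9 against 1.11 CPM in the tail. It was read in 2 of 8 blastema and 4 of 13 tail low cells, and its log2 fold in the blastema was 3.14 with all low cells but 0.27 without blastema cell 36, where it was no longer higher. In the tail it was 5.13, and 1.85 without tail cell 49.

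Among matrix genes that are not collagens, 5 of 15 were lower in both conditions (13.7% over all transcripts) and 0 higher (9.16%). The metalloproteinase dd_3902 (mmp19), which can cut matrix proteins, had 0 reads in all 21 low cells, against 42.3 CPM in blastema high cells and 128.5 CPM in tail high cells. With 3 reads taken as the limit of a group at 0, it was at least 27.6-fold lower in the blastema and at least 239-fold lower in the tail. The collagen glycosyltransferase dd_11681 (COLGALT2) was lower in both conditions too, by 2.44 and 2.12 on the log2 scale. The list medians were −2.44 in the blastema and −0.32 in the tail, and the blastema value was −5.0 without blastema cell 75, which held most of the matrix reads of that group. Among those that passed in neither direction were dd_1967 (TLL1), a tolloid-like protease, and dd_3527 (HSPG2), named after a basement membrane proteoglycan, which were high in a few tail low cells described further on.

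Most members of the muscle regulator list, and most transcripts that the study linked to nr4A, were lower as well. Of 4 measured regulators, dd_12634 (MyoD-like), dd_12229 (nr4A) and dd_10216 (snail-like) were lower in both conditions, beside 13.7% of all transcripts. The nuclear receptor gene nr4A was at 0 reads in all 13 tail low cells, against 141.6 CPM in tail high cells, and at 72.5 CPM in blastema low cells against 297 CPM in high cells, read in blastema cell 75 alone. These transcripts were patchy in high cells too: nr4A was read in 43 of 61 blastema and 16 of 40 tail high cells, and dd_12634 (MyoD-like) in 17 and 8 of them. Of the 9 measured transcripts that the study linked to nr4A, 8 were lower, among them mmp19 and a collagen that the lists above also hold. The small heat shock protein gene dd_2736 (hspb1) was read in 61 of 61 blastema and 35 of 40 tail high cells but in 3 of 8 blastema and 3 of 13 tail low cells. Its levels in blastema cells 33, 43 and 75 and tail cell 29 were 2157, 926, 673 and 871 CPM, and under 10 CPM in each of the other 17 low cells.

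Positional genes were lower in part. Of the Wnt and FGFRL list, 10 of 17 measured members were lower in both conditions and 0 higher. Over all transcripts 13.7% were lower and 9.16% higher. The list medians were −2.72 in the blastema and −1.70 in the tail. The posterior ligand gene dd_16209 (wnt11-2) was at 1.02 CPM in blastema low cells against 220 CPM in high cells, and at 0 reads in all 13 tail low cells against 336 CPM in tail high cells, at least 626-fold lower. It was read in 45 of 61 blastema and 29 of 40 tail high cells. dd_7911 (ror), a Wnt receptor kinase gene, was lower by 5.82 and 6.65 on the log2 scale. The Wnt transport genes Evi/Wls (dd_11629 and dd_9546) were lower too, whereas dd_11237 (Vang-2) differed little, with log2 folds of −0.21 and 0.82. Of the BMP, slit and netrin list, 8 of 15 members were lower, among them the midline repellent gene dd_12111 (slit1), at 0 reads in all 21 low cells against 54.7 CPM in blastema and 181 CPM in tail high cells. dd_7195 (dcc), a netrin receptor gene, differed between conditions, with a log2 fold of 0.37 in the blastema, where blastema cell 43 alone had 2325 CPM, and 48.7 CPM in tail low against 376 CPM in high cells.

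By the naming rule, the 12 transcripts that were lowest relative to high cells, among those read in at least 50% of high cells, were dd_701, dd_840, dd_333 (CNN2), dd_16209 (wnt11-2) and 8 without a name in the study's annotation: dd_3719, dd_6811, dd_6570, dd_2373, dd_2229, dd_12020, dd_3230 and dd_13610. dd_6811 had 0 reads in all 21 low cells, against 240 CPM in blastema and 390 CPM in tail high cells. dd_2373 stood at 1.53 CPM in blastema low cells against 1471 CPM in high cells, and at 4.48 CPM in tail low cells against 923 CPM in high cells. The named ones at a lower detection limit of 25% of cells added the receptor phosphatase gene dd_12545 (PTPRF), the potassium channel gene dd_14006 (KCNN3), ror, COL11A1, mmp19, dd_2500 (COL4A6), dd_740 (COL2A1) and MhcA. In the tail, every low cell was below every high cell for 8 transcripts (0.0428% of those measured), which included dd_402, dd_740, dd_2197 (COL24A1) and dd_701, while in the blastema this held for dd_840 alone (0.00535%). dd_701 and dd_840 set the split, so their place in these lists is part of the choice. The blastema count holds no other transcript. For 0 transcripts (0.0%) did every low cell exceed every high cell in either condition.

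**Figure D2:**
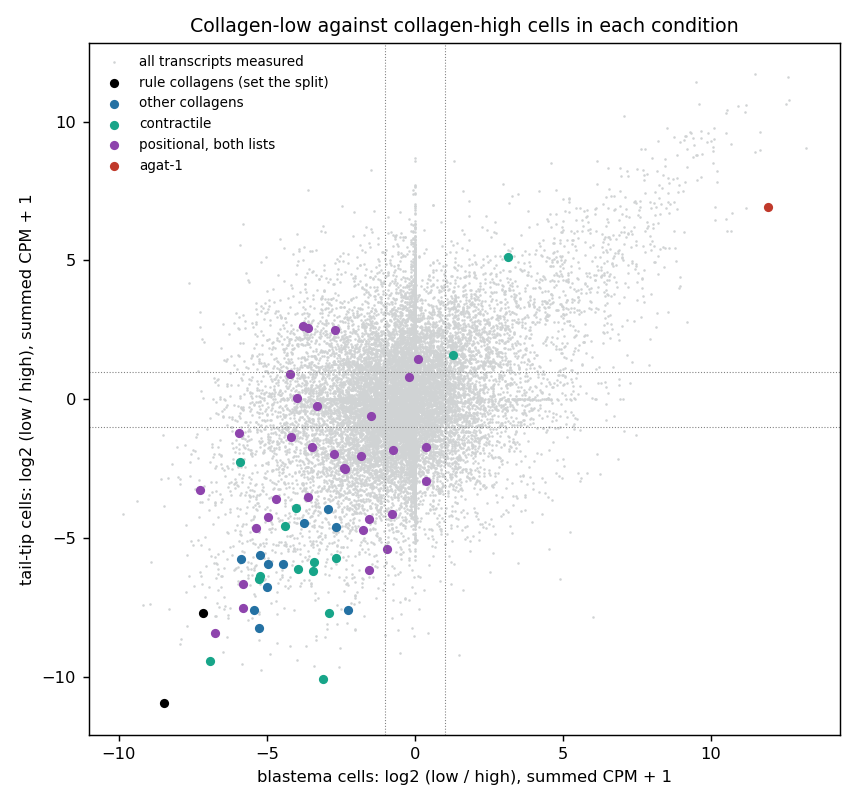
Each point is a transcript, with the log2 fold of low over high cells in the blastema on the horizontal axis and in the tail on the vertical axis, from summed counts with 1 CPM added. Dotted lines mark folds of 1 and −1. Collagens and most contractile transcripts lie in the lower left, and agat-1 lies at 11.93 and 6.93 in the upper right.

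What the low cells held in place of muscle transcripts differed between cells, and agat-1 was high in some and at 0 in the others. dd_920 (agat-1) was at 11241, 9692, 10494, 10143 and 6870 CPM in blastema cells 12, 40, 36, 65 and 23, and at 0 in the other 3 blastema low cells. In the tail it was at 11573, 10934, 8528, 6960, 2965 and 1561 CPM in tail cells 61, 62, 31, 26, 25 and 49, and at 0 in the other 7 tail low cells. These 11 agat-1-rich cells, 5 of 8 and 6 of 13 low cells, spanned 6870 to 11241 CPM in the blastema and 1561 to 11573 CPM in the tail. Summed over cells, agat-1 was at 7712 CPM (7590 to 7836) in blastema low cells against 0.978 CPM (0.580 to 1.55) in blastema high cells, and at 4282 CPM in tail low cells against 34.1 CPM in tail high cells. In blastema high cells agat-1 was read in 10 of 61 cells, at most at 74.1 CPM. In tail high cells it was read in 6 of 40, at most 16.9 CPM apart from tail cells 57 and 36, at 2030 and 1231 CPM. Those 2 cells are also summed near-identical pairs, and their muscle levels lay inside the range of tail high cells. They had 23398 and 51531 CPM of other collagens (tail high median 62994 CPM). Their contractile transcripts were at 25967 and 41813 CPM (tail high median 38264 CPM). They also had 5736 and 1880 CPM of dd_899, which led many agat-1-rich cells, but 0 and 10.6 CPM of dd_146.

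The agat-1-rich cells had little of any muscle list. Their contractile sums were 165 to 783 CPM in the blastema and 99.7 to 410.0 CPM in the tail, against at least 7457 and 9170 CPM in the high cells of these conditions. Other collagens were at 59.4 to 453 CPM in the blastema cells and 181 to 1300 CPM in the tail cells. dd_702 (COL2A1), at 57 to 1141 CPM, was the collagen with reads in every one of the 11. The defining epidermal list had only 1 measurable marker, agat-1 itself, since dd_950 (vim) had too few reads, so the cells are described by that transcript and given no cell type name. This grouping was chosen after the values were seen.

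The 12 named transcripts with the largest folds in both conditions were without a name in the annotation: dd_146, dd_68, dd_343, dd_379, dd_8195, dd_361, dd_80, dd_2162, dd_14, dd_917, dd_3086 and dd_1294. dd_146 was at 7891 to 55864 CPM in the 5 agat-1-rich blastema cells and at 10439 to 50477 CPM in the 6 tail cells, against summed levels of 1.90 CPM in blastema and 6.26 CPM in tail high cells. It was at 0 in all other low cells except tail cell 29, with 13.2 CPM. dd_68 was at 6307 to 30148 CPM in the agat-1-rich blastema cells and 3821 to 12655 CPM in the tail ones, and was also read in blastema cell 33 at 205.5 CPM and tail cell 29 at 2.64 CPM. dd_379 was at 7502 to 23900 CPM and at 1747 to 13368 CPM, so the ranges of blastema and tail cells overlapped. Across the low cells, dd_899 was among the 3 leading transcripts in 8 cells, dd_146 in 7 and dd_68 in 5, all of them agat-1-rich.

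The 12 annotated transcripts at the top of the same order were agat-1 with dd_137 (DYNLL2), dd_6508 (TBC1D30), dd_7930 (PCDH9), dd_5823 (MYO7A), dd_8540, dd_7033 (ZFHX3), dd_960 (TXNRD3), TTN, dd_816 (HPGDS), dd_3754 (ELMO2) and dd_542 (POR). The dynein light chain gene dd_137 was read in all 11 agat-1-rich cells, at 40 to 1862 CPM, and had 0 reads in the other 10 low cells. In high cells dd_137 was at 0.163 CPM in the blastema and 0.0265 CPM in the tail. dd_5823 (MYO7A), an unconventional myosin that in vertebrates works in actin-rich cell protrusions, was at 526.2 CPM in blastema low cells against 16.5 CPM in high cells, and at 541.6 CPM in tail low cells against 22.9 CPM in high cells. It was at 142.7 CPM or more in all the agat-1-rich cells except blastema cell 40, which had under 10 CPM. The transcription factor gene dd_7033 (ZFHX3) was at 490 CPM in blastema low cells with 0 reads in all 61 blastema high cells, at least 3007-fold higher. Blastema cell 43, which is not agat-1-rich, had the most, at 2319 CPM. In the tail, dd_7033 was at 373 CPM in low cells against 16.7 CPM in high cells. It was read in 4 tail high cells, at up to 305 CPM. dd_816 (HPGDS), a prostaglandin synthase gene, rested on few cells, and its log2 fold in the blastema of 2.88 became −0.56 without blastema cell 65. Without the 11 agat-1-rich cells, 672 in place of 1714 transcripts were higher, 227 of them shared, and of the 12 largest only dd_14 and of the 12 annotated 0 still were. All of the named lower transcripts were still lower.

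Over all low cells, 9.16% of 18707 transcripts were higher in both conditions. Over both conditions, 309 transcripts were read in at least 80% of the agat-1-rich cells and at least 1 log2 unit above high cells. One of them, chosen after its values were seen, was dd_2178, at 11468 CPM in the blastema cells against 2.01 CPM in blastema high cells and at 8635 CPM in the tail cells against 0.848 CPM in tail high cells, with 0 reads in the other low cells. Over all 18707 transcripts, the median Spearman rho between agat-1-rich cells was 0.40 (55 pairs), against 0.22 between these and high cells (1111 pairs) and 0.33 between high cells (5050 pairs). These correlations are across transcripts in cells thinned to one depth, and a large part of them rests on transcripts with few or no reads.

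**Figure D3:**
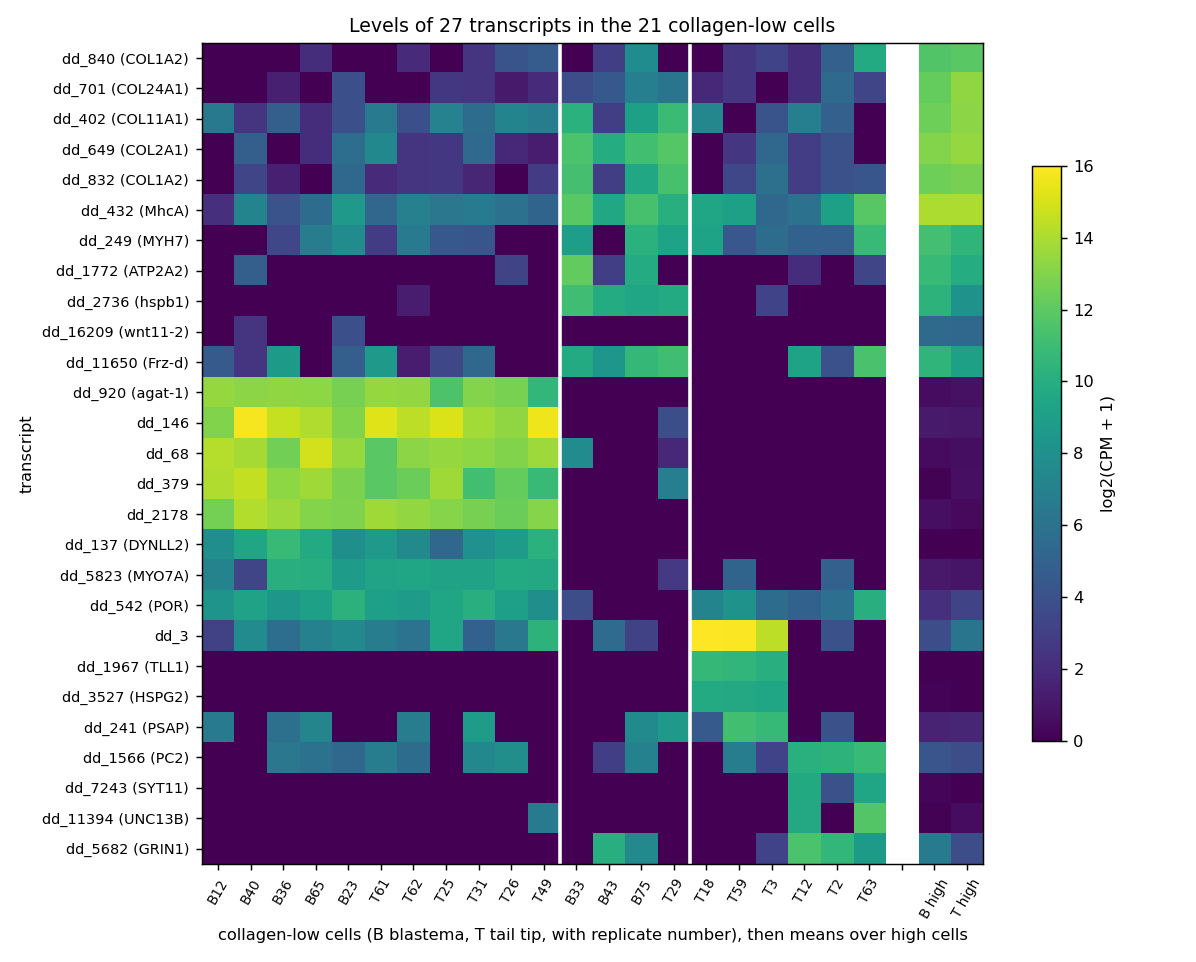
Rows are 27 transcripts and columns the 21 low cells, with colour for log2(CPM + 1), followed by the mean of that value over blastema and tail high cells. White lines part the 11 agat-1-rich cells, the 4 cells with other collagens and the 6 remaining tail cells. agat-1, dd_146, dd_68, dd_379 and dd_2178 are high in the first block and far lower or at 0 in the others, where dd_68 in blastema cell 33 (205.5 CPM) is the highest.

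In 4 low cells the other collagens were higher than in the rest of the low cells, while dd_840 and dd_701 were low. Blastema cells 33, 43 and 75 and tail cell 29 had 12443, 1839, 18569 and 17106 CPM of the 11 other collagens, and 20443, 1939, 9329 and 2586 CPM of the contractile list. Blastema cells 33 and 75 lay inside the range of blastema high cells for both lists. Blastema cell 43 and tail cell 29 lay below every high cell of their condition for both. Blastema cell 33 had 4661 CPM of ATP2A2, 2966 CPM of dd_405 (TPM1, tropomyosin) and 2864 CPM of dd_649 (COL2A1), with 0 reads of dd_840 and 12.8 CPM of dd_701. Blastema cell 75 held 6075 CPM of dd_2337 and 4860 CPM of dd_1579 (both COL4A6), 2937 CPM of the slit receptor gene dd_7921 (ROBO2), 549 CPM of nr4A (dd_12229) and 565 CPM of the MyoD-like gene dd_12634. Blastema cell 43 was the poorest of the 4 and held 926 CPM of the homeobox gene dd_19327 (nkx1-1), 2325 CPM of dd_7195 (dcc) and the largest mitochondrial share of the low cells, 52.7%. Tail cell 29 had 3476 CPM of dd_649, 2175 CPM of the Wnt inhibitor family gene dd_11650 (Frz-d) and 2547 CPM of dd_5187 (FREM1), a matrix protein gene. agat-1 was at 0 in all 4. These 4 are the cells without agat-1 that had at least 1000 CPM of other collagens, a limit chosen after the values were seen, with blastema cell 43 at 1839 CPM nearest inside it and tail cell 12 at 735 CPM nearest outside. Tail cells 61 and 25 also passed it, at 1110 and 1300 CPM, and were counted as agat-1-rich. Without these 4 cells, the other collagens had a median log2 fold of −10.33 in the blastema and −9.24 in the tail.

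The other 6 low cells, all from the tail, were neither. Of the 8 blastema low cells, 0 were of this kind. Tail cells 18, 3 and 59 shared dd_1967 (TLL1), at 1632, 1100 and 1468 CPM, and dd_3527 (HSPG2), at 867, 717 and 795 CPM. TLL1 had 0 reads in all 61 blastema and 40 tail high cells and in the other 18 low cells, and HSPG2 was read in 1 of the 61 blastema and 0 of the 40 tail high cells. The same 3 cells had 206775, 21722 and 61598 CPM of dd_3, which has no name in the annotation and was at most 25787 CPM in a tail high cell. The lysosomal activator gene dd_241 (PSAP) was uneven, at 21.9, 1658 and 2292 CPM. The BMP pathway gene dd_6877 (Smad1) was at 301, 525 and 912 CPM, above the 291 CPM of the highest tail high cell. The highest blastema high cell had 477 CPM of it, and it was read in 33 of 61 blastema and 21 of 40 tail high cells. dd_6736 (TNC) was at 1754, 1408 and 404.8 CPM, inside the range of tail high cells (up to 5500 CPM). In all, 456 transcripts were read in each of the 3 (after thinning) and at least 1 log2 unit above tail high cells. Of these, 10 had 0 reads in every high cell. Over all tail low cells, 29.5% of 18707 transcripts were at least 1 log2 unit above tail high cells.

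Tail cells 12, 2 and 63 had the most of dd_1566 (PC2), at 1152, 1319 and 1863 CPM, against at most 408 CPM in tail high and 961 CPM in blastema high cells, and it was lower than this in each of the other 18 low cells. The glutamate receptor subunit gene dd_5682 (GRIN1) was at 2867, 1577 and 419 CPM in them. It was also read in 52 of 61 blastema and 22 of 40 tail high cells, at up to 2052 CPM in the blastema. The synaptic vesicle gene dd_7243 (SYT11) was at 847, 14.3 and 717 CPM in tail cells 12, 2 and 63. dd_11394 (UNC13B), which primes vesicles for release, was at 814 and 3428.1 CPM in tail cells 12 and 63, and dd_4267 (GRIK3), another glutamate receptor gene, at 715 and 1425 CPM, while both had 0 reads in tail cell 2. Other members of the neuron list had 0 reads in all 13 tail low cells: dd_14987 (KCNA2), at 61.1 CPM in tail high cells, dd_15217 (KCNC1), at 35.2 CPM, and KCND3, NCALD and GAD1, at under 10 CPM. Tail cells 12 and 63 had neuron list sums of 6882 and 8626 CPM, above the highest high cell of either condition (4110 CPM), while tail cell 2 stood at 2911 CPM. Tail cell 63 also held contractile transcripts at 6213 CPM, the most among tail low cells, with 3708 CPM of MhcA (dd_432), and 866 CPM of dd_840 but 27.9 CPM of the 11 other collagens. In all, 246 transcripts were read in each of the 3 and at least 1 log2 unit above tail high cells, of which 0 were without reads in every high cell. Over all tail low cells, 29.5% of 18707 transcripts were that far above tail high cells. These sets of 3 cells were also chosen after the values were seen, so their counts describe these cells only.

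**Figure D4:**
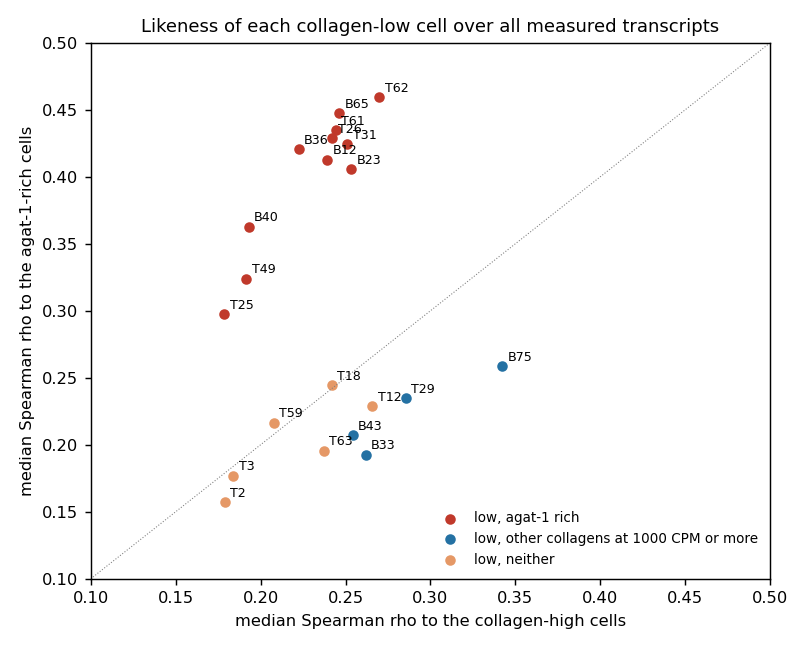
Each point is a collagen-low cell (B blastema, T tail, with its replicate number), with its median Spearman rho to the high cells of both conditions on the horizontal axis and to the agat-1-rich cells on the vertical axis, across 18707 transcripts. The 11 agat-1-rich cells and, by a small margin, tail cells 18 and 59 lie above the dotted line of equality, and the 4 cells with other collagens and the other 4 tail cells lie below it.

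Markers of other cell types were also counted over the whole low group, beside 9.16% higher and 13.7% lower over all transcripts. Of 17 measured neuron list members, 7 were lower and 1 higher, with medians of −1.71 in the blastema and 0.84 in the tail. The tail value turned to −2.31 without tail cell 29 and −1.19 without tail cell 12. Several neuron list members, GRIN1, GRIK3 and dd_14987 (KCNA2) among them, were read in many high cells, so the list is not exclusive to neurons here. Of 14 cilia list members, 5 were higher and 1 lower, with medians of −0.07 and 1.33. The axoneme gene dd_3187 (TEKT3) was read in 1 blastema and 5 tail low cells and in 1 of 61 blastema and 0 of 40 tail high cells, and the rootlet gene dd_1404 (CROCC) was at 153.4 CPM in tail low cells against 17.3 CPM in tail high cells, in 4 agat-1-rich cells. The cilia sum was 1546 CPM in tail cell 31 and 1405 CPM in tail cell 2, above every tail high cell (at most 975 CPM). Of 9 division list members, 1 was higher and 2 lower. Of 2 gut and phagocyte list members both were lower, and dd_1132 (VIL1) was read in 58 of 61 blastema and 40 of 40 tail high cells, so it was not specific to other cells here.

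None of the 10 RNA processing transcripts was higher or lower in both conditions, with medians of −0.06 and 0.29. Of 5 respiratory chain members 1 was lower, of 7 lysosome members 1 was higher (PSAP), and of 4 proteasome members 2 were higher, dd_1855 (PSMC3) and dd_1278 (PSMA1). Of 6 stress and folding members 2 were higher, dd_960 (TXNRD3), a redox enzyme gene, and dd_2491 (SERP2), and 1 was lower, hspb1. Over all transcripts 9.16% were higher and 13.7% lower, so single members of these short lists say little about the functions. dd_960 was at 233 CPM in blastema low cells against 24.1 CPM in high cells, and at 285 CPM in tail low cells against 7.32 CPM in high cells.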

How the data were processed

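The authors deposited raw read counts (unit: counts) of SmartSeq2 libraries on 26566 rows of a planarian transcriptome assembly, and a table of their own pole comparison (scores and fold estimates), from which only the row names were used. CASAVA 1.7.0, Trimmomatic 0.32 and Bowtie are credited to the notes on processing of the submitters. The program that counted reads was not given in the sources used here. The 6 rows outside that comparison, among them the mitochondrial row and 2 abundant contigs, held 64.6% of the reads and stayed out, and rows of 1 contig number were summed (26399 transcripts, 652 named by the study). Contigs with the same name may share reads.

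Cells needed 50000 reads on these rows. Among 4057 pairs of libraries within a condition, 6 had a ratio of chi-square to degrees of freedom between 1.28 and 7.41, against at least 22.2 in the others (median 81.6), and were summed. Doublets were not called, since cells were sorted 1 per well. Counts of a group's cells were added and scaled to CPM (Python 3.11.15, pandas 2.3.3, scipy 1.17.1), with exact Poisson, conditional binomial and Clopper-Pearson 95% intervals. Where a group had 0 reads, 3 reads in all were taken as its limit. Transcripts needed 20 reads over all cells. No test between groups was run: each condition is 1 sample, and cells are not replicates. The comparison was tried on simulated counts in which all low cells shared the same change, in deeply read transcripts only. It therefore does not cover changes carried by a few low cells or by transcripts with few reads.

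The members and the 18 lists (158 transcripts) were chosen with earlier results of these data known. Named transcripts were the 12 with the largest smaller fold of both conditions in each direction read in 50% of low (higher) or high (lower) cells of each condition, the 12 annotated ones at 25%, each low cell's 3 leading transcripts and list members. Others, and the sets of low cells, were chosen after values were seen. Leading transcripts had the largest CPM in a cell among those under 25% of that level in the mean of high cells. Medians are given for lists of at least 10 measured members. Alternatives covered the CPM limit, all 13 collagens, read minimum, pseudocount, filter, scaling (edgeR 4.0.16 TMM), pairs kept apart and each low cell left out.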

Additional observations from a re-analysis of the deposited data

Results flagged for a closer look

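For 7 of 20 quantities over the 8 blastema low cells, 1 cell stood apart from the rest by Dixon's criterion. It was not applied to dd_840 and dd_701, which chose the cells. The criterion flags about 1 in 20 groups by chance where values are normally distributed. Several of these sums are skewed and reach 0, so more flags can arise by chance. Blastema cell 75 was highest for the other matrix list (3463 CPM) and the division list (685 CPM, next 234). Blastema cell 33 was highest for the contractile list (20443 CPM, next 9329), the gut and phagocyte list (1091 CPM, all of it VIL1, next 205) and the stress and folding list (3467 CPM, next 1533). Blastema cell 43 was highest for the neuron list (1233 CPM, next 540), of which GRIN1 made up most. Blastema cell 36 had the most reads (613313, next 303071). Cells 75, 33 and 43 are the 3 blastema low cells with other collagens. The criterion was not applied to the 13 tail low cells, because the critical values used here covered smaller groups only.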

How the results depend on the processing

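No paired analysis was possible because the replicate numbers are names in accession order and pair no cells. The number of blastema low cells was 15 under a limit of 3000 CPM and 5 with 200000 reads required, against 8. With a pseudocount of 10 CPM, 1033 transcripts were higher and 1006 lower in both conditions, against 1714 and 2565. Without the agat-1-rich cells (an alternative chosen after seeing the data) 672 were higher. The other settings moved these counts by less than 1.5 times.

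List medians in the blastema moved most. Under 5000 CPM of all 13 collagens they were −9.38 for other collagens, −7.53 for contractile, −5.41 for other matrix and −3.78 for the Wnt list. Without the cells set apart by other collagens (also chosen after seeing the data) they were −10.33, −8.39, −5.44 and −4.19, with −4.53 for the BMP list and −4.67 for neurons. A limit of 300 CPM gave −4.98 for other matrix, and one of 3000 CPM gave −0.94 for the Wnt and −1.40 for the BMP list. A pseudocount of 10 CPM gave −1.45 for the Wnt, −1.26 for the BMP and −1.16 for the neuron list. With 200000 reads the Wnt list was at −3.59 and neurons at −3.02. Means over cells gave −3.04 for the BMP list and −2.44 for neurons. Neurons were at −1.14 with no filter, −4.67 at 200 reads and −3.91 without the agat-1-rich cells, where cilia were at −0.85.

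In the tail, other collagens were at −9.23 under 5000 CPM of all collagens and −9.24 without tail cell 29. A pseudocount of 10 CPM gave −0.45 for the Wnt and −1.87 for the BMP list, which was −2.70 at 3000 CPM. Neurons were at −2.31 under 5000 CPM of all collagens, −0.038 with no filter, 1.58 without the agat-1-rich cells and −2.31 without tail cell 29.

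With each low cell left out in turn, medians in the blastema ranged over −5.0 to −1.96 for other matrix and −3.17 to −1.71 for neurons, and in the tail over −9.24 to −5.50 for other collagens and −2.31 to 1.28 for neurons. Higher transcripts then numbered 1593 to 1747 and lower ones 2519 to 2796. The blastema log2 fold of dd_816 (HPGDS) ranged over −0.56 (without blastema cell 65) to 3.39, so it changed direction, as did the tail median of the neuron list.

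Few low cells and unequal depth limit all of this. A transcript read in 1 or 2 of the low cells gives a fold that leans on those cells, and differences under a few reads in a group were not detectable.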

Other observations

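Tail and blastema pole cells, which entered no comparison here, gave these values of the same quantities. Of the 7 uninjured pole libraries, 3 had under 1000 CPM of dd_840 plus dd_701 (70.7, 20.8 and 812 CPM). One of these, with 70.7 CPM, also had 401 CPM of other collagens and 283 CPM of contractile transcripts, while the other two had 18101 and 22032 CPM of other collagens. The 5 regenerating pole libraries had 2265 to 6499 CPM of dd_840 plus dd_701. agat-1 and TLL1 had 0 reads in all 12 pole libraries. PC2 reached 1024 CPM in 1 regenerating pole library. Among the 12 non-pole libraries with too few reads (156 to 48649), 1 had under 1000 CPM of dd_840 plus dd_701 and 1 had at least 1000 CPM of agat-1.

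Among the leading transcripts of tail cell 25, dd_258 reached 146427 CPM, dd_753 117862 CPM and dd_957 65386 CPM. In tail cell 18, dd_3 reached 206775 CPM. Such transcripts took a large share of the reads of these cells and lowered the CPM of the others in them.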
